A study of Drosophila melanogaster with 47 samples.

Results

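In fly heads, 106 of 17137 listed genes held on average at most 50% of their *yw* RNA level in each of 4 strains that carry a deletion in the clock gene *timeless* (*tim*). The genes were chosen by their normalized counts, the values deposited by the authors in which every library has its own scaling factor. The level of a gene in a genotype was the mean of its 6 time point means. A gene was kept when its *yw* mean was at least 10 and its highest mean among *tim_up126*, *tim_up122*, *tim_up10*, and *tim_in24* was at most 50% of the *yw* mean. Genes of the cytochrome P450 family and of several antimicrobial and immune peptide families were left out by the start of their symbols. Because these values chose the genes, every comparison of mean levels with *yw* below is a description and carries no test. The limit on the highest strain mean also left out genes with 1 high strain, and high *yw* values at single times could bring a gene in. Tests are therefore read only for differences among the deletion strains and for time of day within them, and time of day in *yw* is a description.

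The flies were homozygous for second chromosomes with CRISPR-made deletions of E-box sequence, located upstream of *tim* in *tim_up126*, *tim_up122*, and *tim_up10* and in an intron of *tim* in *tim_in24*. The strains *tim_up126* and *tim_up122* were made with tandem guide RNAs and *tim_up10* and *tim_in24* with a single guide RNA. The control *yw* is a laboratory strain named for the mutations *yellow* and *white*. Males and females were collected after 4 d of 12:12 LD at 25 °C, at 6 time points from ZT2 to ZT22. Poly(A) RNA of heads was sequenced, and the methods do not give the mix of sexes in a library. There were 12 libraries of *tim_up126*, 12 of *tim_up122*, 6 of *tim_up10*, 6 of *tim_in24*, and 11 of *yw*, which had 1 library at ZT18 and 2 at every other time point. The injected stock and any backcross are not given in the sources used here, so the deletions and whatever else the 4 strains share against *yw* cannot be told apart. In whole heads, fewer cells of a type and less RNA per cell cannot be told apart either.

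TIM is a core protein of the fly circadian clock. With its partner PER it represses the activator CLK-CYC, which binds E-boxes and drives *tim*, *per*, *vri*, and *Pdp1* in a daily rhythm. A head sample holds the compound eyes, brain, antennae, fat body, and muscle, so genes of smell, digestion, detoxification, metabolism, and cell structure are all measured in it.

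Libraries held 1761896 to 10230355 counts. *tim* averaged 680.6 normalized counts for *tim_up126*, 1647 for *tim_up122*, 2078 for *tim_up10*, 3588 for *tim_in24*, and 4416 for *yw*. The library labelled *yw* ZT22 replicate 1 was nearly the same as *yw* ZT18 replicate 1, with a chi-square of 1.21 per degree of freedom between their counts, against 5.06 to 11.9 in the 17 pairs of replicates. *tim* stood at 7166 in the library labelled *yw* ZT22 replicate 1, at 6974 in *yw* ZT18 replicate 1, and at 2102 in *yw* ZT22 replicate 2, so the first of these goes against its label. Counts of genes with a rhythm in *yw*, or with a rhythm different from *yw*, are therefore given with and without it. Whether it and *yw* ZT18 replicate 1 came from separate samples was not tested, and both are counted as *yw* libraries. Photoreceptor, neuron, and glia markers were present in every library. The 9 midgut markers summed to 1219 in *tim_up126* ZT6 replicate 2 and to 1333 in *yw* ZT14 replicate 2. They summed to 95.1 in *tim_up126* ZT22 replicate 2 and to 119.8 in *yw* ZT2 replicate 2, and to at most 6.83 in every other library. The female markers *Yp1*, *Yp2*, and *Yp3* summed to medians of 244298 in *tim_up126*, 283438 in *tim_up122*, 326110 in *tim_up10*, 262643 in *tim_in24*, and 218684 in *yw*.

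**Figure D1:**
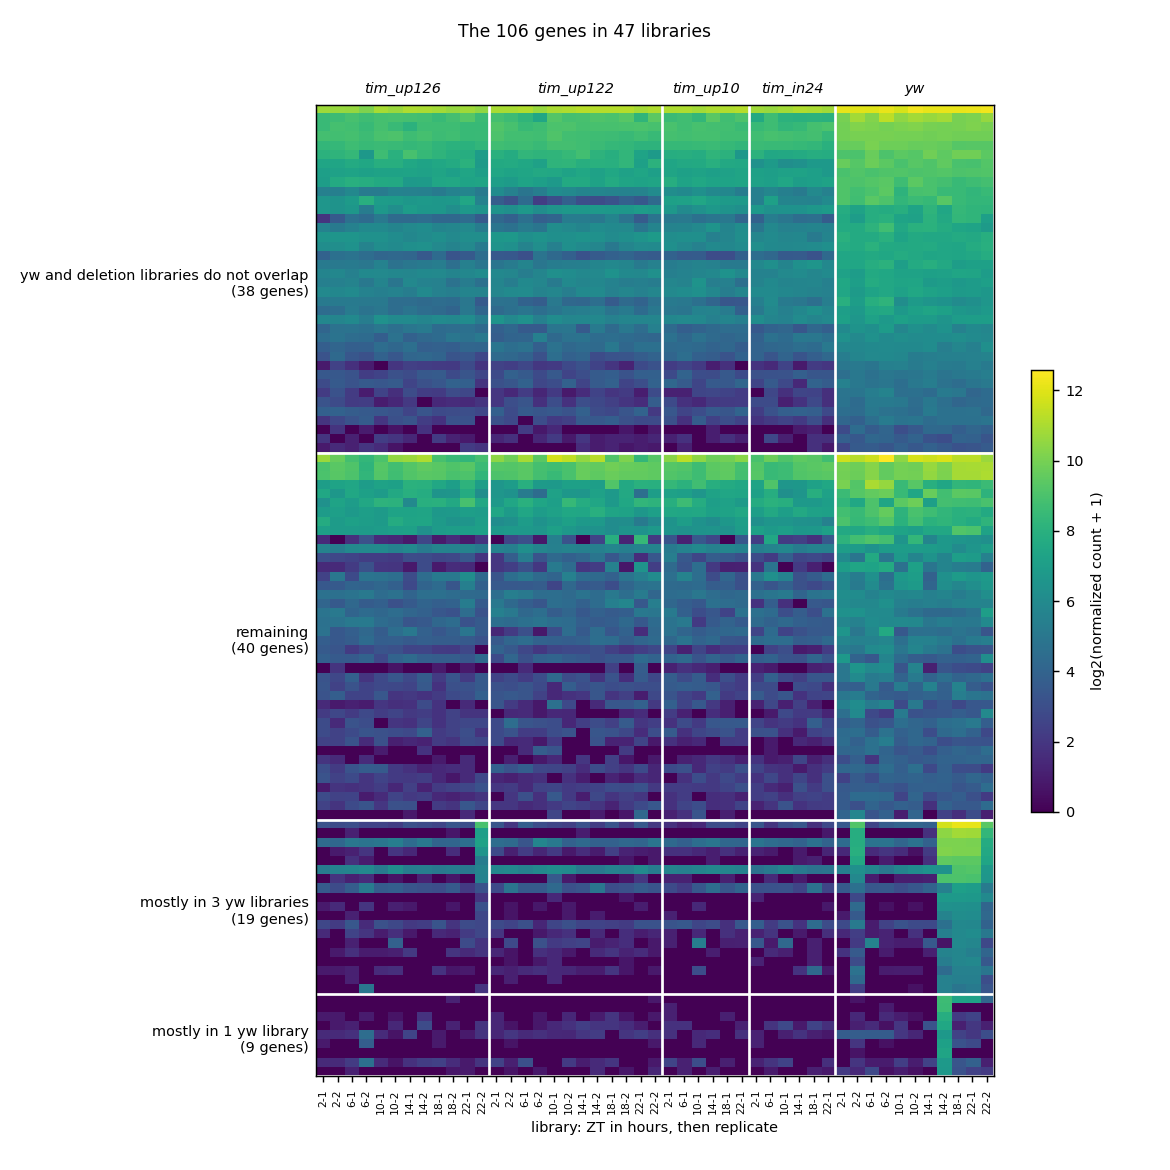
Each row is 1 of the 106 genes, in 4 blocks, and each column is 1 of the 47 libraries, with deletion strains on the left and *yw* on the right; color is log2(normalized count + 1). The block of 38 genes is brighter in all 11 *yw* libraries, whereas the blocks of 19 and 9 genes are bright in a few *yw* libraries.

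The median gene of the 106 stood at 24.8% of its *yw* level for *tim_up126*, 23.7% for *tim_up122*, 26.1% for *tim_up10*, and 20.6% for *tim_in24*. For the highest strain the median was 30.4% over the 106 genes, against 106.4% over all 9831 genes with a *yw* mean of at least 10. Both thresholds were met by 1.28% of the 9831 genes, a share that the rule itself fixes. The 20 genes left out by symbol were 7 of the *Cyp* family, such as *Cyp6a2*, *Cyp6g1*, and *Cyp4p2*, and 13 of peptide families, including 4 cecropin, 3 attacin, and 2 diptericin genes. At the ratio threshold, *asRNA:CR44181* (49.5%), *Jhedup* (49.7%), and *CG13012* (49.8%) lay just inside, and *CG42821* (50.5%), *Oseg5* (50.6%), and *Obp83b* (50.96%) just outside. At the threshold on the *yw* mean, *lncRNA:CR44603* (10.2) lay just inside and *blanks* (9.9997) just outside.

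The genes fell into 4 blocks by how the *yw* libraries carried the signal, drawn after the values were seen. In 38 genes the lowest *yw* library lay above the highest of the 36 deletion libraries. In 19 genes at least 60% of the summed *yw* signal came from 3 libraries, and in 9 genes more than 50% came from 1 library. The 9 genes also had 65.2% to 99.8% in the same 3 libraries, and were set apart only by the share in 1 library. The other 40 genes had some overlap between *yw* and deletion libraries.

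The 38 genes without overlap included genes for odorant binding proteins, amylases, a DNA photolyase, a vesicle coat subunit, and a katanin subunit. Across all 9831 genes, 83, or 0.844%, had every *yw* library above every deletion library. The choice of genes with low strain means favors this pattern, so nothing is read from its frequency among the 106.

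*Obp56d* and *Obp56a*, which encode secreted odorant binding proteins, lie within 10 kb of each other on 2R. *Obp56d* had the highest *yw* mean of the 106 genes, with 1692 ± 271 for *tim_up126*, 2109 ± 238 for *tim_up122*, 2102 ± 148 for *tim_up10*, and 1861 ± 201 for *tim_in24*, against 4531 ± 469.6 for *yw* (mean of time points ± SD over n = 12, 12, 6, 6, and 11 libraries). Its lowest, median, and highest library were 1141, 1978, and 2436 in the deletion strains and 3625, 4601, and 5255 in *yw*. *Obp56a* was lower still relative to *yw*, with 2.72, 21.6, and 49.99 in the deletion strains and 122.04, 202, and 319 in *yw*. All 11 *yw* libraries stood above all 36 deletion libraries for both genes. *Obp99b* on 3R averaged 153 for *tim_up126*, 97.9 for *tim_up122*, 146 for *tim_up10*, and 155 for *tim_in24*, against 558 for *yw*, and its libraries overlapped. These were 3 of the 28 genes with an *Obp* symbol and a *yw* mean of at least 10, whose median for the highest strain was 82.8% of *yw*.

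*Amy-d* and *Amy-p* encode the digestive enzyme amylase and are near-identical neighbors on 2R, so reads may be split between them. *Amy-d* had a lowest, median, and highest library of 72.3, 189.7, and 313 in the deletion strains and 492, 613, and 868 in *yw*. *Amy-p* had 3.83, 75.5, and 246 in the deletion strains and 312, 377, and 652 in *yw*. Neither gene overlapped between the deletion strains and *yw*, and *Amy-p* spread far more widely among the strains, as described below.

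The gap was widest for *phr*, which encodes a photolyase that repairs ultraviolet damage to DNA. It averaged 17.4 ± 5.66 for *tim_up126*, 13.3 ± 5.52 for *tim_up122*, 10.8 ± 3.34 for *tim_up10*, and 14.8 ± 5.43 for *tim_in24*, against 185 ± 17.4 for *yw* (mean of time points ± SD over n = 12, 12, 6, 6, and 11 libraries). Its highest deletion library held 27.6 and its lowest *yw* library 166, a ratio of 6.03 of *yw* to deletion strains. The next ratios were 3.63 for *CG34215* and 3.602 for *lncRNA:CR44043*, and the smallest was 1.01 for *CG16965*. *phr* overlaps *Prosalpha1* on the opposite strand, and the library kit does not mark strand, so reads in their shared bases cannot be told apart. The same holds for *CG34215* with *CG15236*, *lncRNA:CR44043* with *l(2)41Ab*, and *CG16965* with *CG6686*.

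*Sec31*, which encodes a subunit of the coat of vesicles that leave the endoplasmic reticulum, had 44.7% of its *yw* mean for *tim_up126*, 44.7% for *tim_up122*, 45.9% for *tim_up10*, and 43.8% for *tim_in24*. Its libraries ran from 330.1 to 555 in the deletion strains and from 915 to 1032 in *yw*. *kat80*, a subunit of the microtubule-severing enzyme katanin and 1 of 3 X-linked genes of the block, ran from 112 to 192 in the deletion strains and from 503 to 593 in *yw*. *kat80* overlaps *Mfe2* on the opposite strand. *scaf*, a serine protease-like gene, had 42.5% to 48.2% of *yw* across the strains. *kat80* and *scaf* were among the genes called as differing among the deletion strains (edgeR adjusted p = 0.0494 and 0.0253).

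Among the genes with the most reads, *CG16926* had a highest strain mean of 31.1% of *yw* and *CG11211* 45.5%. *CG7299* had 38.2% and *CG34215* 13.9%. *GstE5*, a glutathione transferase gene, had 38.97%, and its neighbor *GstE4*, whose libraries overlapped, had 24.5%. *lectin-28C* encodes a C-type lectin and had 35.1%. The lowest value in the block was 4.62% for *ChLD3*, followed by 9.43% for *phr*. *ChLD3* overlaps *LSm7* and *lectin-28C* overlaps *TwdlE*, each on the opposite strand. The block median was 35.0%.

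**Figure D2:**
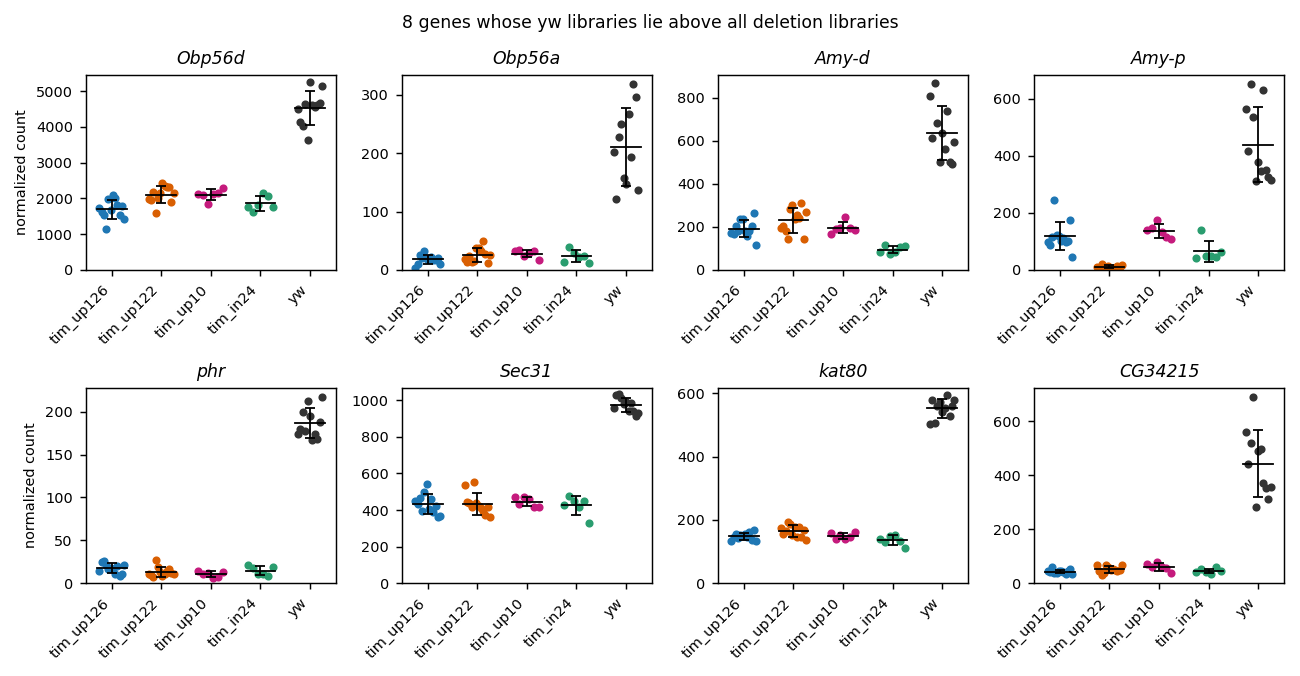
Points are libraries in normalized counts, with 12 of *tim_up126*, 12 of *tim_up122*, 6 of *tim_up10*, 6 of *tim_in24*, and 11 of *yw*; horizontal lines are means over libraries and bars are SD. In each of the 8 genes all *yw* points lie above all deletion points, and *Amy-p* is lowest in *tim_up122*.

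Chromosome position was not used by the rule. All 106 genes could be placed on the dm6 assembly, 4 of them under a newer symbol. Chromosome 2, which carries *tim* and the deletions, held 69 of them, or 65.1%, against 38.7% of the 9803 placed genes with a *yw* mean of at least 10. Among the 38 genes without overlap 23 were on 2R and 11 on 2L, together 89.5%, and *CG7255* on 3L was the only one on chromosome 3. Of the 40 overlapping genes 25 were on chromosome 2, or 62.5%, and of the 19 genes carried by 3 libraries 7 were. The share on chromosome 2 was highest in the block without overlap. These shares are a description, since neighboring genes are not independent.

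**Figure D3:**
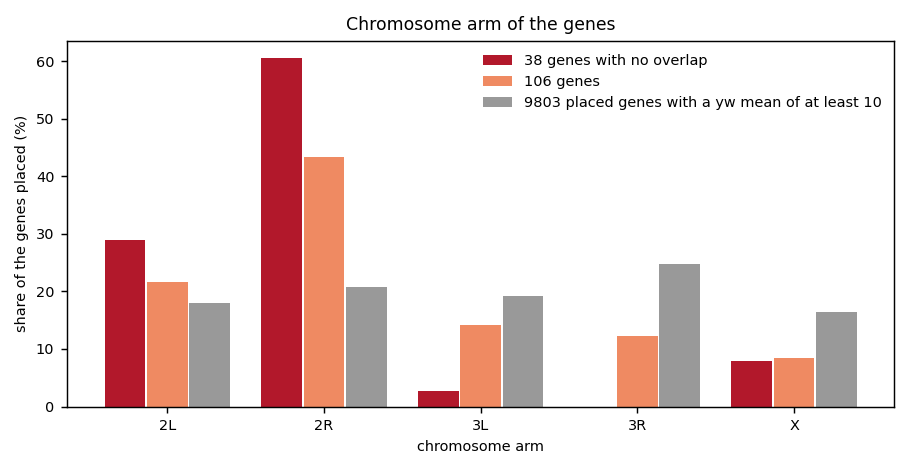
Bars give the percentage of placed genes on each chromosome arm for the 38 genes without overlap, all 106 genes, and the 9803 placed genes with a *yw* mean of at least 10. Arm 2R holds 60.5% of the first set, 43.4% of the second, and 20.8% of the last.

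*tim* lies at chr2L:3493986-3508119 on the minus strand. The nearest of the 106 genes was *CG33281* (chr2L:3324237-3326637), 167.3 kb away. *CG16704* (chr2L:3692123-3692587), *CG3513* (chr2L:3692699-3693182), and *CG16713* (chr2L:3695032-3695411) form a cluster that begins 184.004 kb from *tim*, and *CG31955* (chr2L:3711881-3713105) lies 203.8 kb away. Within 200 kb of *tim* 4 of the 45 genes with a *yw* mean of at least 10 were among the 106, and within 500 kb 5 of 84 were. The next on this arm, *CG4267*, was 1249 kb away. *CG16704* had a lowest, median, and highest library of 24.6, 50.2, and 90.05 in the deletion strains and 114, 207, and 416 in *yw*. Its libraries did not overlap, whereas those of the 4 others near *tim* did.

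Several of the 106 genes overlap each other on opposite strands, and reads in the shared bases cannot be told apart. These were *CG7300* with *asRNA:CR44181*, *CG31704* with *asRNA:CR43936*, *Sec31* with *asRNA:CR45202*, *CG15120* with *CG16926*, *Cht9* with *asRNA:CR44703*, and *Skp2* with *CG14645*. *CG10332* had the same count in every library as *IM18*, a peptide gene left out by its symbol, so both are 1 measurement. On opposite strands, *CG4744* overlaps *AttC* and *CG43109* overlaps *DptB*, 2 further peptide genes left out by symbol. Reads in those shared bases cannot be told apart either.

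The 19 genes carried by 3 *yw* libraries were low in most libraries of every genotype, *yw* included. These libraries were *yw* ZT14 replicate 2, ZT18 replicate 1, and the library labelled ZT22 replicate 1, and they held 61.3% to 90.8% of the summed *yw* signal. *CG34220* had a median of 6.37 in the deletion libraries, with 494 in *tim_up126* ZT22 replicate 2. In *yw* it had 3327, 4659, and 4505 in the 3 libraries. It had 570.5 in *yw* ZT2 replicate 2, 659 in *yw* ZT22 replicate 2, and 4.81 to 16.2 in the other 6. Thus 5 of 11 *yw* libraries and 1 of 36 deletion libraries were high. The 5 include both libraries of the near-identical pair, which may not be separate samples. The deletion library was the shallowest of all, with 1761896 counts.

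The same 5 *yw* libraries were each above the other 6 for 17 of the 19 genes, and *tim_up126* ZT22 replicate 2 was the highest deletion library for 10. *CG34324* had 136 in that library and 1407, 1830.0, and 1768 in the 3 *yw* libraries. The ratio of *CG34220* to *CG34324* was 3.64 in that *tim_up126* library and between 2.04 and 2.55 in the 5 *yw* libraries. The block also held *Skp2*, *CG14645*, *CG31077*, and *CG11672*, the mucin gene *Muc68D*, and the chitinase genes *Cht8* and *Cht9*. *Muc68D* had at most 38.03 in a deletion library and 737, 687, and 689.6 in the 3 *yw* libraries.

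Midgut markers were also detected in some of these libraries. In *tim_up126* ZT22 replicate 2, 5 of the 9 were detected, with a sum of 95.1. In *yw*, 8 of the 9 were detected in ZT14 replicate 2, with a sum of 1333, and in ZT2 replicate 2, with a sum of 119.8. The sum was 6.83 in *yw* ZT18 replicate 1, 4.79 in the library labelled ZT22 replicate 1, and 3.41 in *yw* ZT22 replicate 2, with *alphaTry* at 0 in each, and *CG34220* had 4659, 4505, and 659 there. In *tim_up126* ZT6 replicate 2, where the sum was 1219, *CG34220* had 4.84 and *CG34324* had no reads.

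Muscle genes of this block stood highest in ZT18 replicate 1 and the library labelled ZT22 replicate 1. *Scp1*, a calcium-binding protein gene of muscle, had a median of 44.95 in the deletion libraries. In *yw* it had 563 and 604 in that pair and 30.2 to 105 in the other 9 libraries. *Act88F*, the actin gene of flight muscle, had at most 36.8 in a deletion library and 134 and 121.9 in the pair. The 5 flight muscle markers, *Act88F* included, summed to 4523 to 7403 in the deletion libraries, to 6517 and 6851 in the pair, and to 3312 to 5257 in the other 9 *yw* libraries. Most of each sum came from *Mf* and *Mlc2*, and other markers behaved differently. *TpnC4*, a troponin C gene, ran from 4.74 to 32.9 in the deletion libraries, and had 77.4 and 70.1 in the pair, 17.1 in *yw* ZT22 replicate 2, and at most 5.68 in the other 8 *yw* libraries. *fln*, the flightin gene, had at most 69.8 in the deletion libraries, 111.6 and 111.9 in the pair, and at least 71.7 in every *yw* library. Their part in the result was not tested. *Akh*, the adipokinetic hormone gene of the corpora cardiaca, had 19.9, 45.6, and 44.8 in the 3 *yw* libraries, and 18.8 in *tim_in24* ZT18 replicate 1.

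The 9 genes carried by 1 library were all highest in *yw* ZT14 replicate 2. They were *CG14125*, *CG18404*, *CG3819*, *CG6283*, *CG18180*, *CG13323*, *CG5767*, *CG15043*, and *CG15818*. *CG18404* had at most 1.23 in a deletion library, 387 in *yw* ZT14 replicate 2, and at most 0.931 in the other 10 *yw* libraries. *CG5767* had no read in any of the 36 deletion libraries, 160.0 in *yw* ZT14 replicate 2, and 0.568 in *yw* ZT2 replicate 2. *CG14125* also had 158 and 145 in ZT18 replicate 1 and the library labelled ZT22 replicate 1.

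*yw* ZT14 replicate 2 is also the library with the highest sum of midgut markers, 1333. In *tim_up126* ZT6 replicate 2, where that sum was 1219, *CG18404* and *CG5767* had no reads and *CG13323* had 12.6. It was the highest deletion library for 3 of the 9 genes. The part of midgut RNA in these genes was not tested. Without the 3 *yw* libraries, which include the only one at ZT18, 0 of the 9 genes and 7 of the 19 still met the rule. In the other blocks 36 of the 40 and all 38 did. The blocks were drawn from these same libraries, so this contrast largely follows from how they were drawn.

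**Figure D4:**
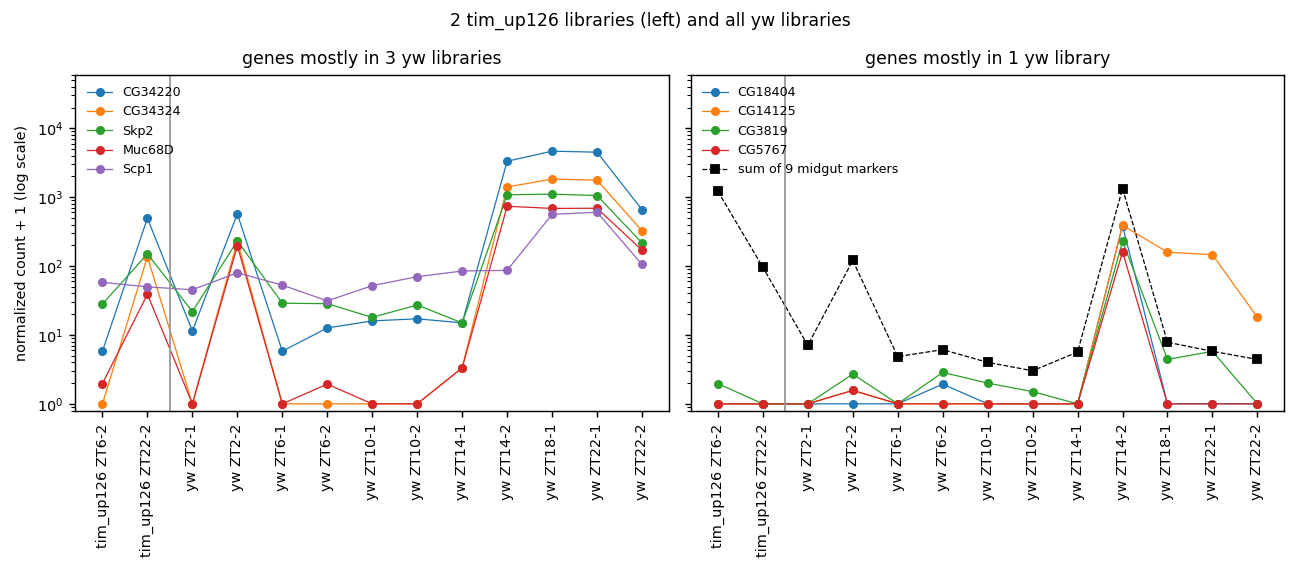
Normalized count + 1 on a log axis in 2 *tim_up126* libraries, left of the gray line, and in the 11 *yw* libraries; lines only join the points of a gene, and black squares are the sum of 9 midgut markers. The genes on the left stand high in *yw* ZT14 replicate 2, ZT18 replicate 1, and the library labelled ZT22 replicate 1, and those on the right peak in *yw* ZT14 replicate 2, where the midgut sum is 1333.

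The other 40 genes were lower on average in each strain and overlapped in some libraries. In 15 of them at least 9 of the 11 *yw* libraries lay above every deletion library. The choice of genes favors this, and it was not counted over all genes, so nothing is read from it. The largest *yw* mean was that of *fit*, a female-biased gene of the head fat body, with 883 for *tim_up126*, 1459.7 for *tim_up122*, 1382 for *tim_up10*, and 614 for *tim_in24*, against 2983 for *yw*. Its libraries ran from 314 to 3524 in the deletion strains and from 1389 to 6142 in *yw*, and 3 *yw* libraries stood above all deletion libraries. The female yolk protein markers had higher medians in all 4 strains than in *yw*.

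*Jhedup*, a duplicate of the juvenile hormone esterase gene, averaged 211 for *tim_up126*, 205 for *tim_up122*, 206 for *tim_up10*, and 178 for *tim_in24*, against 425 for *yw*. *lush*, an odorant binding protein gene without an *Obp* symbol that is used in pheromone detection, averaged 25.2 for *tim_up126*, 27.7 for *tim_up122*, 20.7 for *tim_up10*, and 33.2 for *tim_in24*, against 80.5 for *yw*. Both overlapped widely: *Jhedup* ran from 60.7 to 492 in the deletion libraries and from 139 to 879.9 in *yw*. *lush* ran from 4.54 to 79.3 in the deletion libraries and from 13.97 to 128 in *yw*.

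*CG10332*, which shares its counts with the peptide gene *IM18*, averaged 2.34 for *tim_up126*, 54.7 for *tim_up122*, 5.87 for *tim_up10*, and 33.6 for *tim_in24*, against 220.3 for *yw*. Its *tim_up122* mean came mostly from 2 of 12 libraries, which held 235 and 348, and its *tim_in24* mean from 1 library with 178. In *yw* it ran from 88.996 to 563 in the 6 libraries of ZT2 to ZT10 and from 50.1 to 103 in the other 5.

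The following genes were singled out after their values were seen, for their uneven spread within *yw*. *Act79B*, another muscle actin gene, had at most 144 in a deletion library. In *yw* it stood at 565 in ZT18 replicate 1, at 513 in the library labelled ZT22 replicate 1, and at 136 to 233 in the other 9. *Pvf2*, a growth factor gene, had at most 12.5 in a deletion library, and 32.7 to 47.8 in 4 *yw* libraries and 7.96 to 15.6 in the other 7. It differed within the near-identical pair, with 47.8 in ZT18 replicate 1 and 12.2 in the library labelled ZT22 replicate 1. *Oaz* ran from 5.85 to 20.2 in the deletion libraries, and had 109, 73.9, and 50.3 in 3 *yw* libraries and 9.62 to 19.999 in the other 8.

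The 106 genes were next compared among the 4 deletion strains, without *yw* in the comparison. Since the rule left out genes with 1 high strain, the number of calls is not read against that of all genes. By edgeR's quasi-likelihood test over all genes, 18 of the 106 differed among the strains, beside 22.8% of the 11027 genes tested. Of these 12 belonged to the 38 genes without overlap and 6 to the 40 overlapping genes. Between *tim_up126* and *tim_up122* 9 of the 106 were called, beside 11.4% of all genes. Of them 5 were higher in *tim_up126*, beside 5.85% of all genes, and 4 were lower, beside 5.57%.

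*Amy-p* differed most. It had a lowest, median, and highest library of 46.2, 108, and 246 in *tim_up126* and 3.83, 9.23, and 20.01 in *tim_up122*, a log2 difference of 3.54 ± 0.23 (SE; edgeR adjusted p = 3.20e-11). The 12 libraries of the one strain did not overlap the 12 of the other. *Amy-p* averaged 137 in *tim_up10* and 65.4 in *tim_in24*. The neighboring copy *Amy-d* was not low in *tim_up122*, where it averaged 231, and was lowest in *tim_in24* with 94.6, over a range of 1.27 on the log2 scale among strains (edgeR adjusted p = 9.36e-06).

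*tim_up10* and *tim_in24* had 1 library per time point, so the test took its spread between libraries from the other genotypes. Other genes also stood apart in *tim_in24*. *CG31704*, which overlaps *asRNA:CR43936*, was highest there, with 69.2, compared with 33.9 in *tim_up126*, 42.1 in *tim_up122*, and 40.98 in *tim_up10* (log2 range 1.02; edgeR adjusted p = 1.10e-04). *Ugt37B1*, a UDP-glycosyltransferase gene, was lowest there, with 6.26, compared with 15.1 in *tim_up126*, 24.7 in *tim_up122*, and 17.4 in *tim_up10* (log2 range 2.81; edgeR adjusted p = 2.37e-04). *CG7255*, the gene on 3L without overlap, was lowest in *tim_in24* with 51.8 and highest in *tim_up122* with 86.3 (edgeR adjusted p = 4.13e-05). The calls of these 3 genes, *Amy-p*, and *Amy-d* were kept in each of 42 other settings.

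Between *tim_up126* and *tim_up122* the other differences were smaller. *Obp56d* was lower in *tim_up126*, with a log2 difference of -0.33 ± 0.07, as were *CG11211* with -0.32 ± 0.06, *scaf* with -0.18 ± 0.04, and *fit* with -0.76 ± 0.22 (SE; edgeR adjusted p between 9.13e-04 and 0.0228). *CG8539* was higher by 0.69 ± 0.14, *Obp99b* by 0.81 ± 0.24, *CG18609* by 2.26 ± 0.67, and *CG33281* by 1.31 ± 0.41 (SE; edgeR adjusted p between 0.00225 and 0.0367). *CG18609* and *CG33281* averaged under 5 normalized counts in both strains. The calls of *fit*, *Obp99b*, and *CG18609* were lost in 6 of 30, 8 of 30, and 5 of 30 other settings.

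Rhythms were tested as a 24 h cosine within each genotype, and the amplitude is the fitted distance from mean to peak on the log2 scale. The calls among the 106 were 6 in *tim_up126*, beside 6.01% of all genes, 8 in *tim_up122*, beside 7.28%, and 6 in *tim_up10* and *tim_in24* fitted jointly, beside 5.67%. In *yw* 47 of the 106 were called, beside 15.4% of all genes. The count was 37 with the library labelled ZT22 replicate 1 left out, beside 11.6%, and 16 with all 3 libraries left out, beside 4.10%. With all 3 left out *yw* had no library at ZT18. Of the 47, 25 were among the 28 genes carried by few *yw* libraries, of which 7 still met the rule without those libraries. Because the *yw* values chose the genes, nothing is read from the counts in *yw*.

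*scaf* was rhythmic in both *tim_up126* and *tim_up122*. Its fitted peak lay at 8.35 h in *tim_up126* and 8.84 h in *tim_up122*, with amplitudes of 0.23 and 0.27 (edgeR adjusted p = 0.0152 and 0.0243). The call was lost in 3 of 18 other settings in *tim_up126* and in 4 of 18 in *tim_up122*.

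Rhythms in *tim_up122* included *fit*, with an amplitude of 1.12 and a peak at 10.1 h, *CG8539* with 0.64 and 10.1 h, and *CG16704* with 0.65 and 14.4 h (edgeR adjusted p between 0.00203 and 0.0109). *CG16798* had an amplitude of 0.88 and a peak at 1.49 h in *tim_up122*, and 1.01 and 1.31 h in *tim_up10* and *tim_in24*. *asRNA:CR44181*, which overlaps *CG7300*, peaked at 18.7 h in *tim_up122*.

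In *tim_up10* and *tim_in24*, *Jhedup* had an amplitude of 0.77 and a peak at 5.94 h, and *lush* 1.35 and 5.73 h (edgeR adjusted p = 6.50e-05 and 9.96e-04). Both calls were kept in each of 16 other settings, whereas those of *CG10332* and *lncRNA:CR45045* were lost in 6 of 16 and 9 of 16. In *tim_up126*, *CG34220* and *CG34324* were called through the library ZT22 replicate 2, without which their edgeR adjusted p were 0.717 and 0.995. *CG5506* was called through *tim_up126* ZT6 replicate 2 (edgeR adjusted p without it = 0.732). *Hsp70Bb*, 1 of several near-identical heat shock genes, and *CG7255* were called too, and their calls were lost in 9 of 18 and 11 of 18 other settings.

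The difference in rhythm from *yw* was computed as an interaction. It sets each strain against the *yw* values that chose the genes, so the calls are given as a description and nothing is read from their number. In *tim_up126* 4 of the 106 genes were called, beside 1.59% of all genes, and in *tim_up122* 5 were, beside 2.03%. Of these, 3 in *tim_up126* and 2 in *tim_up122* were genes carried by 3 *yw* libraries. With the library labelled ZT22 replicate 1 left out the counts were 4 in *tim_up126*, beside 1.01% of all genes, and 3 in *tim_up122*, beside 1.51%. With all 3 libraries left out, and thus no *yw* library at ZT18, 1 gene was called in each strain, beside 0.354% in *tim_up126* and 0.236% in *tim_up122*. Both comparisons share the *yw* libraries.

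That gene was *CG4757*. From ZT2 to ZT22 its time point means were 144, 149, 146, 259, 158, and 202 in *tim_up126*, 111, 180.1, 127, 136, 377, and 248 in *tim_up122*, and 829.8, 1795, 505, 209.9, 312, and 336 in *yw*. With 1 library per time point, *tim_up10* ran from 182 to 426 and *tim_in24* from 96.02 to 561. Its *yw* level was highest at ZT2 and ZT6. At ZT22 the 2 *yw* libraries held 297, in the one that goes against its label, and 375.

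*Act88F* and *Scp1*, the muscle genes carried by few *yw* libraries, were also called in both comparisons, and *CG5506* in *tim_up126* and *CG10332* in *tim_up122*. *CG16704*, near *tim*, was called in *tim_up122*, a call lost in 11 of 29 other settings. Its time point means from ZT2 to ZT22 were 26.7, 32.4, 65.5, 59.3, 60.6, and 39.8 in *tim_up122* and 206, 350.0, 221, 238, 166, and 135 in *yw*.

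**Figure D5:**
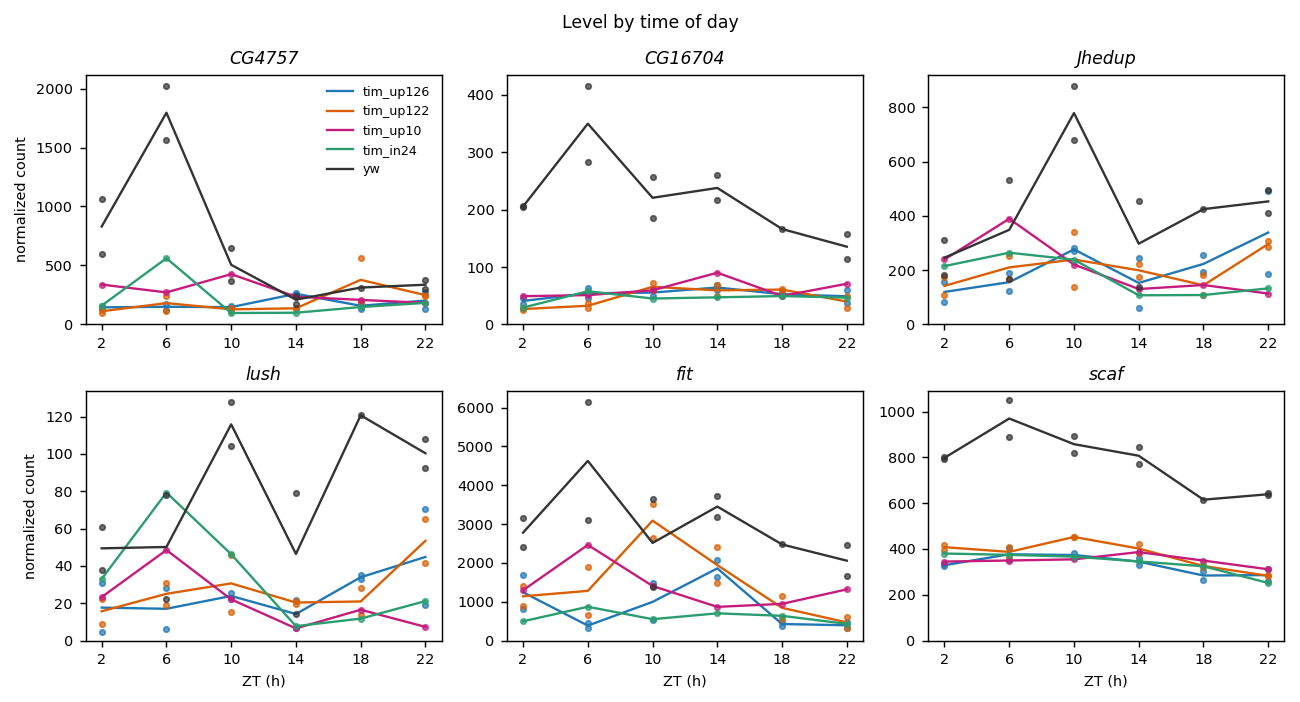
Normalized counts by time of day (ZT in hours) for 6 genes, with points for libraries and lines through the time point means of each genotype; *yw* points at ZT22 include the library labelled ZT22 replicate 1. At ZT6 the highest deletion strain mean of *CG4757* is 561 in *tim_in24*, against 1795 in *yw*.

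Lists were drawn by the start of the symbol, and clock genes by name, over genes with a *yw* mean of at least 10. Genes with only a CG number could not enter the lists by symbol start, whatever they encode. By symbol, the 106 genes held 2 of 6 sugar enzyme genes (*Amy-d* and *Amy-p*), 2 of 30 glutathione transferase genes, and 1 of 17 UDP-glycosyltransferase genes. They also held 1 of 24 cuticle genes (*Cpr47Ea*), 1 of 11 heat shock genes (*Hsp70Bb*), both genes with a mucin symbol (*Muc12Ea* and *Muc68D*), and 10 of 495 genes named as non-coding RNA. They held 0 of 18 genes with a serine protease symbol, 12 with a lipid symbol, 3 with a yolk protein symbol, and 9 clock genes. The serine protease-like gene *scaf* is not in the serine protease list because of its symbol. Of the 106 genes 59 had only a CG number as their symbol, of 3589 such genes. Across all 9831 genes 1.08% were among the 106.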

How the data were processed

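RNA of fly heads was sequenced in 47 libraries. The labels and design text name STAR, featureCounts, and dm6, whereas the methods name Tophat and ESAT; versions, annotation, and strand setting are not given in the sources used here. The authors deposited raw read counts per gene and a second table of normalized signal, equal to the raw counts over a single scaling factor for a library. The signal gave all levels and the choice of genes, and the counts gave all tests. Of 17137 genes 11027, including all 106, passed filterByExpr and were tested with edgeR 4.0.16 in R 4.3.3 (TMM, quasi-likelihood test, Benjamini-Hochberg adjustment over all tested genes, threshold 0.05). Strains were compared as means of 6 time points in a model with 1 coefficient per genotype and time point. In it *tim_up10* and *tim_in24*, with 1 library per time point, add nothing to the estimate of spread. Rhythms were a cosine and a sine of 24 h, and rhythm differences their interaction with genotype. DESeq2 1.42.0 was an alternative. The tests were tried on simulated data. Positions are from the dm6 annotation, and no per-sample column was left unused.

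Chi-squares between libraries used genes with at least 10 counts over both. Genes named are the highest *yw* means, the smallest ratios, up to 8 calls per test by p, genes at the thresholds, genes carried by 1 library, and list members; others were singled out after their values were seen. The genes and lists were chosen with earlier results of these data known. Alternatives were other scalings, averages, thresholds, and filters, a replicate block, and leaving out libraries. Leaving out 3 *yw* libraries and the median over libraries were added after seeing the data. Leaving out the 3 left *yw* without a library at ZT18. The design text describes replicates as independent biological samples. Whether this holds for the near-identical *yw* pair was not tested. Promoter and protein sequences were not used here.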

Additional observations from a re-analysis of the deposited data

Results flagged for a closer look

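The rhythm differed from *yw* by the interaction test in 9 cases, given as the amplitude of the difference on the log2 scale. These are a description, since the *yw* values entered the choice of the genes. In *tim_up126* these were *Act88F* (2.86), *CG4757* (1.79), *Scp1* (2.29), and *CG5506* (10.4). In *tim_up122* they were *CG4757* (2.07), *Scp1* (2.19), *Act88F* (2.27), *CG16704* (0.91), and *CG10332* (4.32). *CG5506* had no reads in most libraries, so the size of its fitted difference has no meaning as a fold change. No genotype and time point has more than 2 libraries, so single libraries were not tested for standing apart from their group.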

How the results depend on the processing

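Of the 106 genes, 81 met the rule whichever library was left out. Of the 81, 36 were among the 38 without overlap and 1 among the 9 carried by 1 library. The blocks were drawn from the same values, so nothing is read from the contrast between them. The number meeting the rule was between 96 (without *yw* ZT14 replicate 2) and 125 (without *yw* ZT14 replicate 1) with 1 library left out, 52 with a *yw* minimum of 50, and 160 with a ratio of at most 0.6. The 13 reversals were genes carried by few libraries and *Oaz*. With the 3 *yw* libraries left out, the highest strain mean was 219.7% of *yw* for *CG18404*, 108.7% for *CG6283*, 150.6% for *CG3819*, 120.2% for *CG5506*, 362.2% for *CG13323*, and 196.3% for *CG15043*. With 1 library left out it ran from 0 to 263.6% for *CG18404* and from 8.92% to 111.8% for *CG6283*, both highest without *yw* ZT14 replicate 2. With the median of time point means it was 181.5% for *CG6283*. With the median over libraries it was 214.7% for *CG6283*, 133.2% for *Akh*, 148.5% for *CG43673*, and 101.04% for *Oaz*.

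Calls among the 106 are given with the share of all genes tested. Without a filter on low counts they were 36 (18.1%) for any strain difference, 25 (8.88%) for *tim_up126* minus *tim_up122*, 15 (5.83%) for rhythm in *tim_up126*, 24 (9.69%) in *tim_up122*, and 24 (3.91%) and 21 (2.85%) for the rhythm differences in *tim_up126* and *tim_up122*. DESeq2 gave 3 (6.77%) for rhythm in *tim_up126* and 15 (3.95%) for the rhythm difference in *tim_up122*. For rhythm in *yw*, time point coefficients gave 18 (6.78%) and leaving out the 3 *yw* libraries 16 (4.10%), and leaving these out gave 1 for the rhythm difference in *tim_up126* (0.354%) and 1 in *tim_up122* (0.236%). The cause was not tested. Leaving out 1 library gave 13 to 19 calls (19.9% to 23.7%) for any strain difference and 7 to 11 (9.14% to 11.5%) for *tim_up126* minus *tim_up122*. For rhythm it gave 34 to 50 (11.4% to 16.0%) in *yw* and 2 to 5 (4.18% to 6.17%) in *tim_up126*. It gave 7 to 9 (5.16% to 6.96%) in *tim_up122* and 3 to 7 (3.94% to 5.78%) in *tim_up10* and *tim_in24*. For the rhythm differences it gave 3 to 7 (0.644% to 2.11%) in *tim_up126* and 2 to 9 (0.707% to 2.74%) in *tim_up122*. Over the tested genes, correlations of same-numbered replicate deviations across strains lay between -0.13 and 0.09. The -0.13 was between *tim_up126* and *yw* at ZT22, where 1 *yw* library goes against its label. Whether a part of the genes shared a replicate effect across strains was not tested. These correlations do not address differences between replicates within a strain. The neuron markers, singled out after their values were seen, split by replicate in *tim_up126* and *tim_up122*. They summed to 15719 to 16580 in replicate 1 of *tim_up126* and to 19044 to 21694 in replicate 2. In *tim_up122* they summed to 18441 to 21225 in replicate 1 and to 16589 to 18125 in replicate 2. In *yw* replicate 2 was higher at ZT2 (18715 against 15964), ZT6 (17872 against 15523), ZT10 (17720 against 17423), and ZT14 (17824 against 16378). At ZT22 *yw* replicate 2 was lower, with 16619 against 16834 in the library that goes against its label. The cause was not tested. The replicate block fitted 1 replicate term shared by all strains in a test. Such a term cannot take up splits that run in opposite directions in *tim_up126* and *tim_up122*, so nothing is read from similar counts. The block gave 18 calls (21.5%) for any strain difference and 10 (12.0%) for *tim_up126* minus *tim_up122*. For rhythm it gave 48 (16.2%) in *yw*, 6 (8.73%) in *tim_up126*, and 9 (8.16%) in *tim_up122*. For the rhythm differences it gave 6 (2.28%) in *tim_up126* and 5 (2.02%) in *tim_up122*. No paired analysis was possible for *tim_up10* and *tim_in24* because they hold 1 replicate per time point.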
